A study of Mus musculus with 3 samples.

Results

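The cells compared were the D6 cells that the study's own clustering had placed in code 4, named somite-like here from their markers, and the D10 cells of codes 1 and 2, named tendon-like. They were chosen by cluster code alone, 700 of 5954 cells of the D6 PM library and 4317 of 7821 cells of the D10 culture library, or 5017 of the 13775 cells of both libraries. Code 1 held 2964 of the D10 cells and code 2 held 1353. The question was which genes separate paraxial mesoderm (PM) cells from the *Scx*-expressing cells found in the culture 4 days later. Both libraries were made by droplet single-cell RNA sequencing from mouse embryonic stem cells (mESCs) that carry ScxGFP, a GFP reporter of the tendon gene *Scx*. The mESC lines came from blastocysts of ScxGFP mice and were kept on mouse embryonic fibroblast feeders, and the line behind each library is not given in the sources used here. For both libraries the mESCs formed embryoid bodies from D0 to D2 in the BMP receptor inhibitor LDN-193189 (500 nM), which was kept from D2 to D6 together with the WNT agonist CHIR (5 μM). The D10 culture had in addition received 10 ng/mL TGFβ1, 100 nM SAG, an agonist of the hedgehog receptor component Smoothened, and 10 ng/mL FGF2 from D6 to D10, without LDN-193189 or CHIR. Each side was 1 library, so that day, medium and library cannot be told apart, no test of the conditions was possible, and all intervals given are 95% intervals of counting error only.

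In the embryo, somites are blocks of paraxial mesoderm that form under WNT and FGF signals and are patterned by retinoic acid, hedgehog and BMP signals. Their ventral part, the sclerotome, gives rise to the axial skeleton, and its dorsolateral edge, the syndetome, to axial tendon. Tendon progenitors switch on the basic helix-loop-helix factor *Scx* and later build a matrix of fibrillar collagens and the small proteoglycans that bind them.

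A gene was counted as tested if it reached 10 CPM (UMIs of a gene per 1000000 UMIs, summed over the cells of a group) on at least one side, and as called if its levels differed by at least 2-fold. Of 10039 genes tested among the 24738 listed in both files, 1217 were higher at D10, 12.1% of those tested, and 1166 were lower, 11.6%. At 4-fold, 504 genes (5.02%) were higher and 431 (4.29%) lower. The median log2 ratio of D10 over D6 over all genes tested was -0.13, and relative to that median 1391 genes were higher and 977 lower. Of the 504 genes that were 4-fold higher at D10, 96 stood under 1 CPM at D6 and 21 had no UMI there, and of the 431 that were 4-fold lower, 100 stood under 1 CPM at D10. The D6 cells gave 6078310 UMIs with a median of 7709 per cell (651 to 27108), and the D10 cells 27298839 UMIs with a median of 5545 (784 to 20683). For a second pair from the same libraries, the 2 clusters richest in pluripotency markers, code 2 of D6 PM and code 3 of the D10 culture, were compared in the same way. This pair also differs in day, medium and library, so it does not show the effect of the library alone. The study's text describes a D10 cluster with as many cells as code 3 by cartilage genes, but in the deposited table code 3 held 6 pluripotency markers at a sum of 5199 CPM and 5 cartilage markers at 47.4 CPM. Of 9219 genes tested in this pluripotent-like pair, 415 (4.50%) were higher at D10 and 300 (3.25%) lower.

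**Figure D1:**
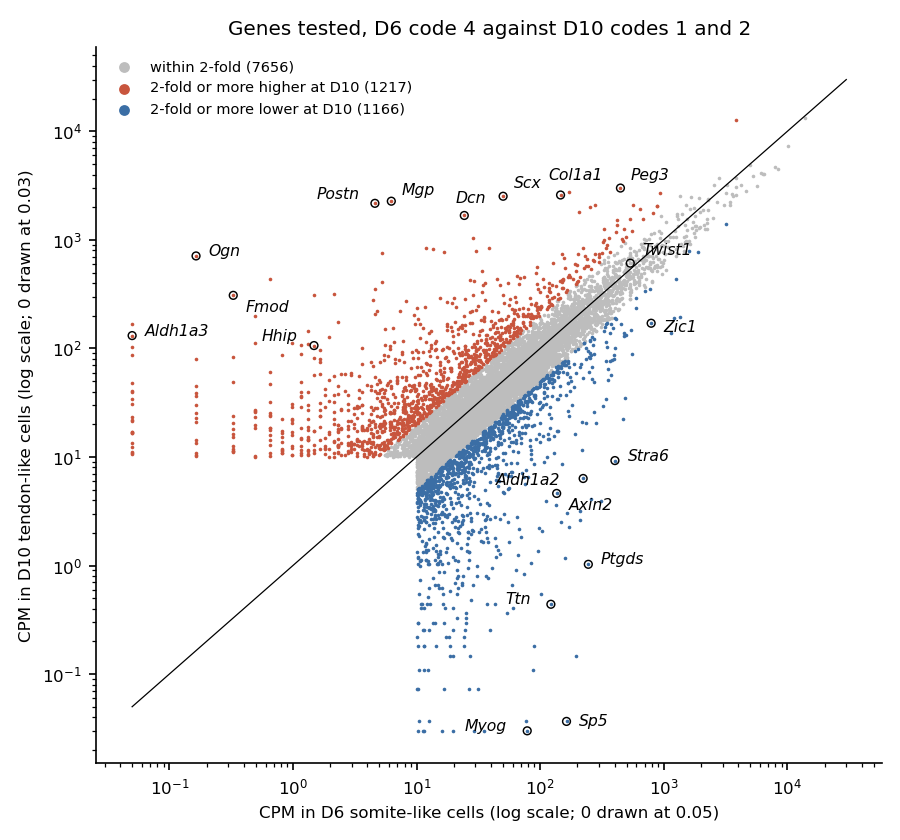
Each point is a gene tested, with its CPM in the D6 somite-like cells on the x axis and in the D10 tendon-like cells on the y axis, both on log scales, and the line marks equal levels. The 1217 genes drawn in red were 2-fold or more higher at D10 and the 1166 in blue 2-fold or more lower, with *Ogn* and *Fmod* far above the line and *Sp5* and *Myog* far below it.

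The names of both groups were checked against markers. All 10 somite markers stood at 10 CPM or more in the D6 cells and summed to 1441 CPM there, against 49.3 CPM in the D6 pluripotent-like cells. All 9 tendon markers stood at 10 CPM or more in the D10 cells, at a sum of 9722 CPM, against 187 CPM in the D10 pluripotent-like cells. These sums do not set each group apart from every other. Somite markers summed to 1134 CPM in the D10 tendon-like cells. The 8 tendon markers listed at D6 summed to 6072 CPM in D6 code 5, where *Scx* was at 5.43 CPM. The genes that most set code 4 apart from the rest of D6 PM were *Zic4*, *Lamc3*, *Minar2* and *Zic1*. Among the first 10 stood 1 somite marker, *Foxc2*, and the muscle genes *Cdh15* and *Myog*, so that the name somite-like rests on the marker levels above and not on the leading genes. Code 4 also held cells with transcripts of other cell types. UMIs of at least 2 of 4 muscle markers (*Myf5*, *Myod1*, *Myog* and *Ttn*) were found in 55 of the 700 cells, and of at least 2 of 7 endoderm or epithelium markers in 57, of which Scrublet had called 22 as doublets. After each cell had been thinned to 3000 UMIs, which kept 606 of 700 D6 cells and 3936 of 4317 D10 cells, the median number of tendon markers per cell was 1 of 8 at D6 and 5 of 8 at D10. At least 3 tendon markers were found in 7.92% of D6 and 99.2% of D10 cells. The median number of somite markers was 2 of 10 on both sides, and at least 3 were found in 47.7% and 27.8% of cells.

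*Scx*, the earliest known marker of tendon progenitors, stood at 50.2 CPM in the D6 somite-like cells and at 2524 CPM in the D10 cells, a 50.3-fold difference (44.9 to 56.5). It was at 2410 CPM in code 1 and 2699 CPM in code 2. In the thinned cells a *Scx* UMI was found in 91.4% of code 1 cells (90.2 to 92.4), 93.7% of code 2 cells (92.2 to 94.9) and 7.76% of D6 cells (5.75 to 10.2). In cells that should lack the gene, it was found in 3.70% of the D6 pluripotent-like cells (2.58 to 5.14), below the somite-like cells of the same library, and in 9.34% of those of D10. These cells were deeper, with medians of 11208 and 10370 UMIs before thinning. In the rest of D6 PM, *Scx* ran from 0.528 CPM in code 6 to 26.8 CPM in code 1, so that it was highest in the somite-like cells at D6, though found in few of them. The ScxGFP transcript went from 1.48 to 56.4 CPM, 38.1-fold higher at D10, and was found in 12.3% of thinned D10 cells. *Mkx*, a homeobox factor needed for tendon maturation, was at 14.3 and 42.0 CPM, 2.94-fold higher at D10 (2.36 to 3.69). The zinc finger factor *Egr1*, counted as a tendon regulator and as an immediate early gene, was 3.16-fold lower at D10, at 212 and 67.0 CPM. The secreted growth factor *Ptn* was 6.36-fold lower, with 1212 CPM at D6. Of 16 tested genes of the list of tendon regulators and markers, 13 were higher and these 2 lower, with a median log2 ratio of 4.56 (0.99 in the pluripotent-like pair), against 12.1% and 11.6% of all genes tested. *Tnmd*, a tenomodulin gene that marks mature tendon, is not listed in the D6 file and stood at 19.1 CPM at D10 (521 UMIs).

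**Figure D2:**
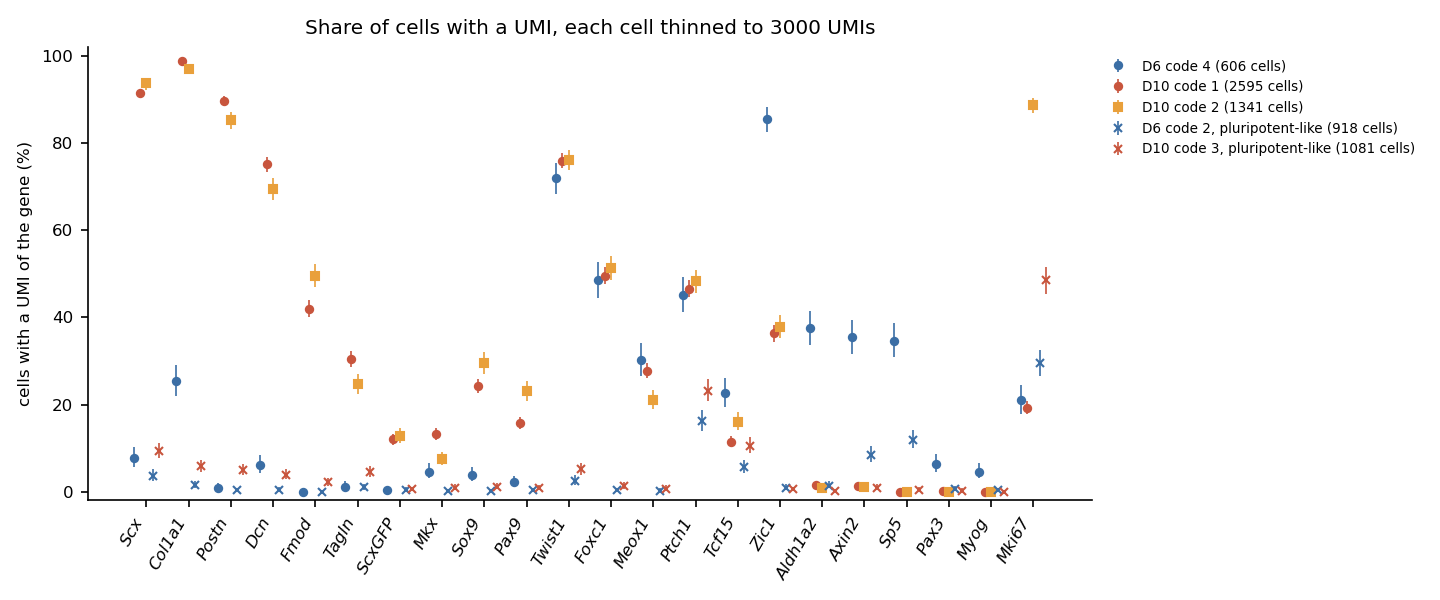
The y axis gives the percent of cells with at least 1 UMI of each gene on the x axis after every cell was thinned to 3000 UMIs, with 95% Clopper-Pearson intervals. Circles and squares are the D6 somite-like cells and both codes of D10 tendon-like cells, and crosses the pluripotent-like cells as background. *Scx* separates the groups at 7.76% and over 90%, *Twist1* and *Foxc1* do not separate them, and *Zic1*, *Aldh1a2*, *Axin2* and *Sp5* run the other way.

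The small proteoglycans that bind collagen fibrils had the highest list median. All 6 tested small leucine-rich proteoglycans were higher at D10, against 12.1% of all genes tested. Their median log2 ratio was 6.91, against 4.27 in the pluripotent-like pair. *Ogn*, the osteoglycin gene, had 1 UMI at D6 (0.165 CPM) and stood at 711 CPM at D10, a ratio of 4324 whose interval began at 776. *Fmod*, or fibromodulin, had 2 UMIs at D6 and stood at 308 CPM at D10, a ratio of 937 that began at 259. No *Fmod* UMI was left in the 606 thinned D6 cells, against 44.6% of D10 cells. *Aspn*, or asporin, had no UMI at D6 and was at 103 CPM at D10, at least 209-fold higher against a floor of 3 UMIs over the D6 group. Decorin (*Dcn*) went from 24.3 to 1679 CPM, biglycan (*Bgn*) from 28.6 to 1052 CPM and lumican (*Lum*) from 47.1 to 383 CPM. In the pluripotent-like pair these transcripts were also higher at D10, where *Dcn* stood at 21.0 CPM against 2.13 CPM at D6, and the part of free RNA from tendon-like cells in that was not tested.

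Fibrillar collagens, which give tendon its tensile strength, were higher at D10 in 7 of 9 tested genes (77.8%) and lower in 1 (11.1%). Over all genes tested the shares were 12.1% and 11.6%. The median log2 ratio of the list was 1.79, against 2.25 in the pluripotent-like pair. *Col1a1* was at 146 CPM at D6 and 2592 CPM at D10, 17.7-fold higher. *Col3a1* was already at 815 CPM in the D6 cells and 2.18-fold higher at D10 (2.12 to 2.25). Type V collagen, which regulates fibril width, was higher in both tested chains, *Col5a2* 21.9-fold and *Col5a1* 2.72-fold. *Col27a1* differed by less than 2-fold, and *Col11a2* was lower, at 19.9 and 3.37 CPM. Of the other collagens 10 of 16 were higher (62.5%) and 3 lower (18.8%). The most different was *Col8a1*, a short-chain network collagen, at 0.658 and 432 CPM, a ratio of 656 (256 to 2409), and the fibril-associated *Col14a1* followed at 1.48 and 312 CPM. The 3 that were lower (2 relative to the median ratio), *Col4a5*, *Col4a6* and *Col13a1*, are basement membrane or transmembrane collagens, while *Col4a1* and *Col4a2* stayed within 2-fold.

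The enzymes that modify, fold and crosslink collagen were called higher in 17 of 21 tested (81.0%, against 12.1% of all genes tested), with a median log2 ratio of 1.77. The lysyl oxidase *Lox* was at 4.44 CPM at D6 and 277 CPM at D10, 62.3-fold higher (42.8 to 94.6). The prolyl hydroxylase subunit *P4ha3* had no UMI at D6 and was at 41.0 CPM at D10, at least 83.0-fold higher against the floor of 3 UMIs. *P4ha2* was 15.2-fold higher. The lysyl hydroxylase *Plod2* stood at 151 and 742 CPM. *Serpinh1*, the collagen chaperone, was already at 1417 CPM at D6 and only 1.22-fold higher at D10. *P3h2*, a prolyl 3-hydroxylase that acts on basement membrane collagen, was 2.22-fold lower, the 1 gene of the list called so. In the pluripotent-like pair the same 21 genes had a median log2 ratio of 0.38.

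Elastic fibre genes were higher in 11 of 14 and lower in 1, *Efemp1*, with *Fbln5*, which organises elastin, at 0.494 and 201 CPM, a ratio of 407 that began at 139. Matrix proteases and their inhibitors were higher in 12 of 15 and lower in 2, *Mmp11* and *Mmp16*. Among other secreted matrix genes, periostin (*Postn*) stood at 4.61 CPM at D6 and 2172 CPM at D10, 471-fold higher (326 to 710), and *Mgp*, which inhibits calcification, at 6.25 and 2273 CPM. *Fn1*, fibronectin, was 16.0-fold higher. Basement membrane and adhesion genes were divided, with 12 of 29 higher (41.4%) and 7 lower (24.1%), or 13 and 6 relative to the median ratio. The shares over all genes tested were 12.1% and 11.6%. Among those lower, the laminin chains *Lamc3* (160 and 1.17 CPM), *Lama5* (17.8 and 1.47 CPM) and *Lama2* (51.3 and 14.2 CPM) and the laminin receptor chain *Itga6* (73.2 and 22.9 CPM) were found, but *Lamc1* and *Lamb2* were 2.74-fold and 2.09-fold higher and *Lamb1* and *Lama1* within 2-fold. The interstitial laminin chain *Lama4*, the nidogen *Nid1* and the mesenchymal cadherin *Cdh11* were higher, by 15.2-fold, 6.29-fold and 2.96-fold.

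**Figure D3:**
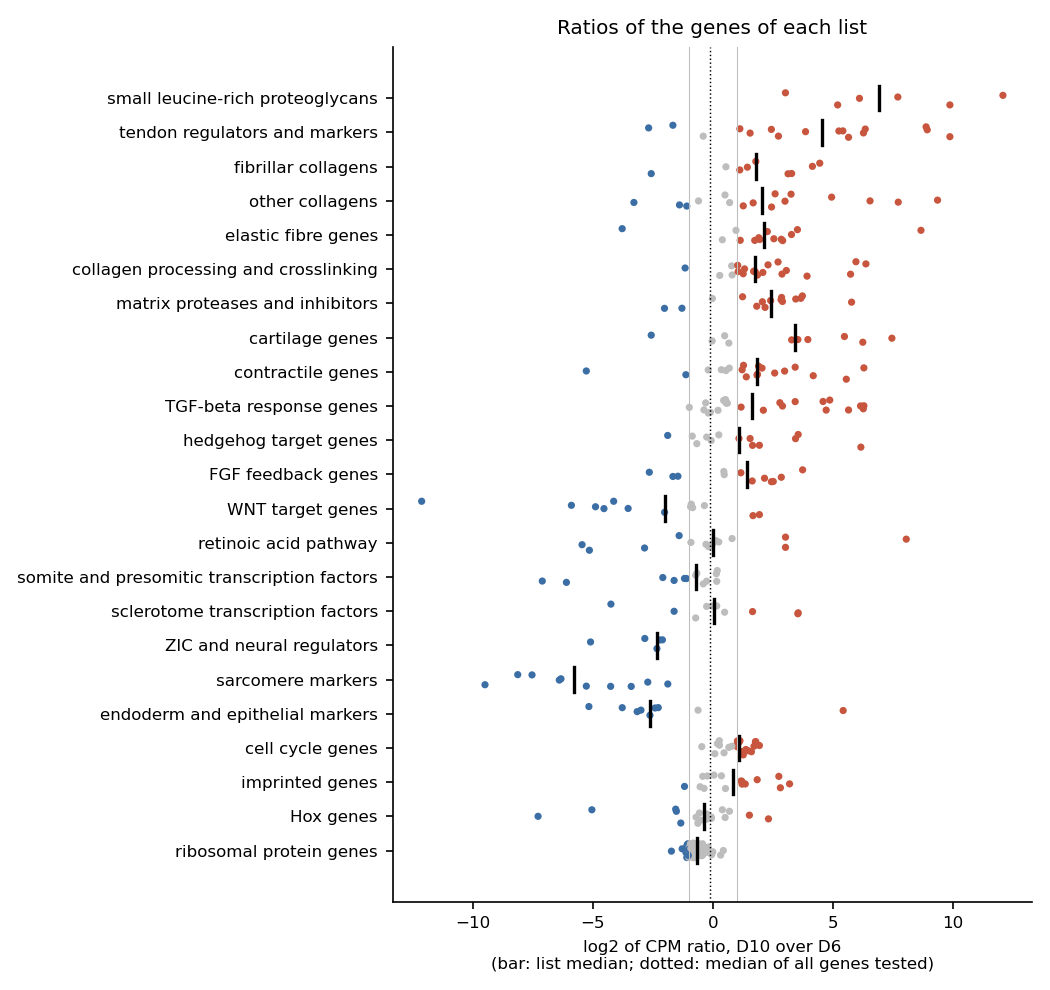
Each point is a tested gene of the list named on the y axis, placed by the log2 of its CPM ratio of D10 over D6, in red where 2-fold or more higher and blue where 2-fold or more lower. Black bars are list medians and the dotted line the median of all genes tested at -0.13. All 6 proteoglycans lie to the right and all 10 sarcomere markers (*Myog* among them) and the ZIC genes to the left, while the somite factors reach from near the dotted line to the left and the *Hox* genes to both sides.

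Promoter sequence was looked at for the 15 genes that differed most each way among those with enough UMIs to be named. The most different genes that were higher, besides those above, were *Thbs4*, *Fndc1*, *Aldh1a3*, *Tm4sf1*, *Naalad2*, *Matn4* and *Fibin*. Among the 15 that were lower were *Sp5*, *Mogat2*, *Foxb1*, *Myog*, *Slc6a13*, *Ttn*, *Ptgds*, *Cck*, *Cdh15*, *Atp2a1*, *Lamc3*, *Adssl1*, *Trmt9b* and *Prtg*. Of these 30 genes, 22 had at least 1 RefSeq promoter (GRCm38.p6, 300 bases around the start). The short motifs were searched on both strands, CATCTG, an E-box of the kind that basic helix-loop-helix factors such as SCX bind, CAGACA, a SMAD-type motif, and GACCACCCA, the motif of GLI factors. An E-box was found in promoters of 5 of the 22 genes, 1 higher (*Fmod*) and 4 lower at D10, the SMAD-type motif in 4, 3 higher and 1 lower, and the GLI motif in 0. Over all genes 4-fold higher at D10, 17.1% of 490 promoters held the E-box, 20.4% the SMAD-type motif and 0.204% the GLI motif. The shares were 15.6%, 18.5% and 0% for 416 promoters of genes 4-fold lower, 10.8%, 15.1% and 0.219% for genes tested, and 17.2%, 21.0% and 0.253% for all 32851 promoters. For the E-box and the SMAD-type motif, both directions thus stood above the genes tested and under all promoters. The 4 promoters below are shown because they belong to 3 matrix genes that were nearly silent at D6 and to *Ptgds*, a prostaglandin synthase gene that stood at 245 CPM at D6 and 1.03 CPM at D10. Its D6 UMIs lay in few cells, 14 of 606 after thinning (2.31%), and it was also at 58.5 CPM in D6 code 1. The capitals mark the motif found, the E-box (in *Ptgds* as its reverse complement) in *Fmod* (chr1:134037004-134037303, plus strand) and *Ptgds* (chr2:25469700-25469999, minus strand) and the SMAD-type motif in *Col8a1* (chr16:57754688-57754987, minus strand) and *Fbln5* (chr12:101818435-101818734, minus strand).
Fmod: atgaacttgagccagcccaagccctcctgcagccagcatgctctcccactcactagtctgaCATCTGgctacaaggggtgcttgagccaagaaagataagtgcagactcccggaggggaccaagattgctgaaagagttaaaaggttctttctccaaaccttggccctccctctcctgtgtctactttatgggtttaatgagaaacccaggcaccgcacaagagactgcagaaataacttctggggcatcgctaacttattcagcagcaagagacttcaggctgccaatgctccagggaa
Col8a1: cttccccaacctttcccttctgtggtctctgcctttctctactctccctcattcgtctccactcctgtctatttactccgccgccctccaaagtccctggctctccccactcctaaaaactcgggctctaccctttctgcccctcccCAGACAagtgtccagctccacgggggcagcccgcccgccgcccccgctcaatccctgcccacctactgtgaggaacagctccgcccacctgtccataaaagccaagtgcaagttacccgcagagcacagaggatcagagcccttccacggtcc
Fbln5: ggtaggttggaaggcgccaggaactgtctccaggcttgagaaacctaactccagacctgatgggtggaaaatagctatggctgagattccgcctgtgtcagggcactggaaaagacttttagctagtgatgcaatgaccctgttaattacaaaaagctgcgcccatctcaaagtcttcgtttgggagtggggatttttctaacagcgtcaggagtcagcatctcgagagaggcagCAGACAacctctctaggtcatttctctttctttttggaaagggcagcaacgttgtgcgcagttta
Ptgds: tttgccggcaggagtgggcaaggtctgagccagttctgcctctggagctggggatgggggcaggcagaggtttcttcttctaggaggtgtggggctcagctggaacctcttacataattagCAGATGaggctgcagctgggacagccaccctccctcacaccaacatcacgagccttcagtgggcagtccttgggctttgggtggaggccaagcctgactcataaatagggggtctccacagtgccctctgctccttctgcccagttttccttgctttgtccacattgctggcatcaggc

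Transcription factors of the somite were kept, or lower, and none of 13 tested was called higher. *Twist1*, a basic helix-loop-helix factor of mesenchyme, was at 536 CPM at D6 and 610 CPM at D10, a ratio of 1.14 (1.10 to 1.18), and was found in 71.9% and 76.0% of thinned cells. *Foxc1*, *Foxc2* and *Meox2* also stayed within 2-fold, and *Meox1* was at 187 and 114 CPM. *Tcf15* (paraxis), which keeps the somite epithelial, was 2.13-fold lower (but within 2-fold against code 2 alone, with a ratio of 0.537, and within 2-fold relative to the median ratio), *Tbx18*, of the rostral somite, 2.26-fold lower, and *Uncx*, of the caudal somite, 3.05-fold lower. *Pax3*, of the dermomyotome, was at 25.0 and 0.366 CPM, 68.3-fold lower, and *Mesp1*, of the newly formed mesoderm, at 10.0 and 0.0733 CPM. The list as a whole held 6 lower genes (46.2%, against 11.6% of all genes tested) and a median log2 ratio of -0.71. In the D6 library *Twist1* was at 5.63 to 16.4 CPM in codes 1, 2, 3 and 6 and at 123 CPM in code 5, and *Foxc1* at 10.7 CPM or less outside code 4.

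Of 10 tested sclerotome factors 3 were higher (30%) and 2 lower (20%), against 12.1% and 11.6% of all genes tested. Their median log2 ratio was 0.07, against 1.53 in the pluripotent-like pair. *Pax9* was at 6.75 and 79.3 CPM, 11.8-fold higher (8.64 to 16.4), *Sox9*, the master factor of cartilage, at 10.7 and 125 CPM, and *Pax1* at 7.40 and 23.3 CPM. All 3 stood higher in code 2 than in code 1, *Pax9* by 1.56-fold, *Sox9* at 150 and 108 CPM and *Pax1* at 32.8 and 17.2 CPM. *Uncx*, described above, was one of the 2 lower genes, and the other had the lowest ratio of the list, 0.0529. Of 10 tested cartilage genes 6 were higher (60%) and 1, *Col11a2*, lower (10%), against 12.1% and 11.6% of all genes tested. Their median log2 ratio was 3.41 (1.85 in the pluripotent-like pair). Among those higher were *Matn4* (matrilin 4, no UMI at D6 and 86.7 CPM at D10) and *Col2a1*, the type II collagen of cartilage, at 33.7 and 329 CPM. *Col2a1* in turn stood at 218 CPM in code 1 and 500 CPM in code 2.

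The ZIC zinc finger factors, which mark dorsal somite and neural tube, were lower, *Zic4* by 4.28-fold, *Zic2* by 5.01-fold and *Zic5* by 7.10-fold. *Zic1* stood at 791 CPM at D6 and 171 CPM at D10, and was found in 85.5% and 36.8% of thinned cells, far above the 0.871% and 0.555% of pluripotent-like cells. *Foxb1* was nearly lost, at 87.9 and 0.110 CPM. The list of sarcomere markers, which also holds *Myog*, was lower in all 10 genes tested, with a median log2 ratio of -5.79 (0.29 in the pluripotent-like pair). *Myog*, which drives muscle differentiation, was at 78.6 CPM at D6 and had no UMI in 27298839 UMIs at D10, at least 716-fold lower against a floor of 3 UMIs over the D10 group. Its D6 UMIs lay in few cells, 28 of 606 after thinning (4.62%). *Ttn* (titin) was at 122 and 0.440 CPM. When the 55 D6 cells with at least 2 muscle markers were left out, 8 of the 10, *Myog* among them, were still 2-fold lower at D10, *Tnnc1* and *Tnni1* were not, and the ratio of *Ttn*, D10 over D6, went from 0.00360 to 0.102, a shift that choosing cells by these markers fixes in part. Of 18 *Hox* genes tested, 11 were within 2-fold and 2 higher, *Hoxc6* and *Hoxd10* (11.1%, near the 12.1% of all genes tested). The 5 that were lower (27.8%, against 11.6% of all genes tested) included the anterior *Hoxb1* (39.6 and 0.256 CPM).

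Signalling genes differed by pathway. Of 13 tested WNT target genes, 7 were lower at D10 and 2 higher, with a median log2 ratio of -2.01 (-0.85 in the pluripotent-like pair). *Sp5*, a direct target, was at 164 CPM at D6 and had 1 UMI at D10 (0.0366 CPM), a ratio of 0.000224 (5.67e-06 to 0.00125). *Axin2*, a feedback scaffold, was at 136 and 4.62 CPM, 29.5-fold lower, and *Notum*, a secreted deacylase that inactivates WNT, at 147 and 2.49 CPM. *Tcf7*, *Tnfrsf19* and *Nkd1* were 23.1-fold, 17.5-fold and 11.5-fold lower. *Nkd2* was 3.19-fold higher and *Lef1* stayed within 2-fold, with 94.9 CPM at D6. *Sp5* was lower in the pluripotent-like pair as well, at 57.7 CPM at D6 and 1.62 CPM at D10, and *Axin2* there at 30.0 and 3.33 CPM. Of 19 WNT ligands, receptors and inhibitors, 8 were higher (42.1%) and 7 lower (36.8%), or 6 lower relative to the median ratio. The shares over all genes tested were 12.1% and 11.6%. *Wnt6* was 15.6-fold lower and the receptor *Fzd1* 14.7-fold higher.

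TGFβ response genes were higher in 12 of 22 and lower in none, with a median log2 ratio of 1.64, against 0.19 in the pluripotent-like pair. *Tagln* (transgelin) was at 5.26 and 412 CPM, 78.3-fold higher (55.5 to 115), and *Pmepa1*, a feedback inhibitor, at 30.1 and 794 CPM, 26.4-fold higher (22.8 to 30.7). The cell cycle inhibitor *Cdkn2b* went from 1.15 to 88.6 CPM. *Smad7*, *Tgif1*, *Junb* and *Snai1* stayed within 2-fold. Of the ligands, receptors and SMADs 5 of 14 were higher (35.7%) and 3 lower (21.4%), against 12.1% and 11.6% of all genes tested. *Tgfb1* was at 2.96 and 56.8 CPM, *Tgfb3* at 4.77 and 47.3 CPM and the receptor *Tgfbr2* at 15.6 and 62.9 CPM. The signal transducer *Smad3* was 3.01-fold lower. Contractile genes, many of them TGFβ-responsive, were higher in 13 of 19 and lower in 2, *Des* and *Mylk* (*Des* alone relative to the median ratio). *Acta2* was at 28.6 and 309 CPM and *Myl9* at 10.4 and 188 CPM. Both were lower in code 2 than in code 1, *Acta2* at 167 and 400 CPM and *Myl9* at 145 and 216 CPM.

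Hedgehog targets were unlike one another. *Hhip*, a membrane antagonist and direct target, was at 1.48 and 106 CPM, 71.8-fold higher (37.8 to 157), and *Foxf2* was 10.9-fold higher. *Gli1*, the usual reporter of the pathway, was at 24.2 CPM at D6 and 23.1 CPM at D10, a ratio of 0.956 (0.798 to 1.15), and the receptor *Ptch1* at 204 and 243 CPM. Both were already set apart in the D6 somite-like cells, since *Gli1* was at 2.20 CPM or less and *Ptch1* at 67.3 CPM or less in every other D6 cluster. In all, 7 of 13 hedgehog target genes were higher and 1, *Sfrp2*, lower, with a median log2 ratio of 1.09 here and 0.91 in the pluripotent-like pair. Of 8 tested ligands, receptors and effectors of the pathway, 1 was higher (12.5%) and 2 lower (25%), against 12.1% and 11.6% of all genes tested. The coreceptor *Boc* was 3.57-fold higher, *Sufu* and *Disp1* were lower, and *Smo*, *Gas1* and *Gli2* stayed within 2-fold.

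FGF feedback genes were higher in 7 of 12 and lower in 3. *Etv4* (2.80 and 37.4 CPM), *Spry4* (2.96 and 21.4 CPM), *Spry1* (14.6 and 83.9 CPM) and *Dusp6* (63.5 and 143 CPM), all induced by FGF through ERK, were higher. *Spry2*, *Egr1* and *Fos* were lower, and *Fos* also belongs, with *Fosb* (58.9 and 7.22 CPM) and *Atf3* (20.2 and 2.67 CPM), to the list of immediate early and heat shock genes, of which 4 of 15 were lower (26.7%) and 2 higher (13.3%, *Ier3* 7.76-fold and *Hspb1* 2.04-fold), against 11.6% and 12.1% of all genes tested. The median log2 ratio of that list was -0.50, and -0.33 in the pluripotent-like pair. FGF ligands and receptors were higher in 7 of 8 tested (87.5%) and lower in 1 (12.5%), at a ratio of 0.0581. *Fgf18*, a ligand made by tendon and perichondrium, was at 1.32 and 144 CPM, 110-fold higher (55.6 to 254), and the receptor *Fgfr1* at 58.9 and 229 CPM.

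Retinoic acid genes went both ways. *Aldh1a2*, the retinaldehyde dehydrogenase of the early somite, was at 223 and 6.34 CPM, 35.2-fold lower, and was found in 37.5% and 1.35% of thinned cells. *Stra6*, a receptor for retinol uptake, was at 403 and 9.27 CPM and *Rdh10*, which makes retinaldehyde, at 170 and 23.8 CPM. *Aldh1a3*, a second retinaldehyde dehydrogenase, had no UMI at D6 and stood at 131 CPM at D10, at least 266-fold higher against the floor of 3 UMIs. The receptor *Rarg* was at 6.09 and 49.6 CPM and the degrading enzyme *Cyp26b1* at 1.32 and 10.7 CPM, while *Rara*, *Rxrb* and *Crabp2* stayed within 2-fold. Over the list 3 of 15 were higher (20%) and 4 lower (26.7%), against 12.1% and 11.6% of all genes tested. BMP response genes were higher in 3 of 6 tested and lower in 0, against 12.1% and 11.6% of all genes tested, *Id1* 2.30-fold, *Id3* 3.13-fold and *Id4* 9.78-fold. Their median log2 ratio was 1.04 here and -1.02 in the pluripotent-like pair.

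**Figure D4:**
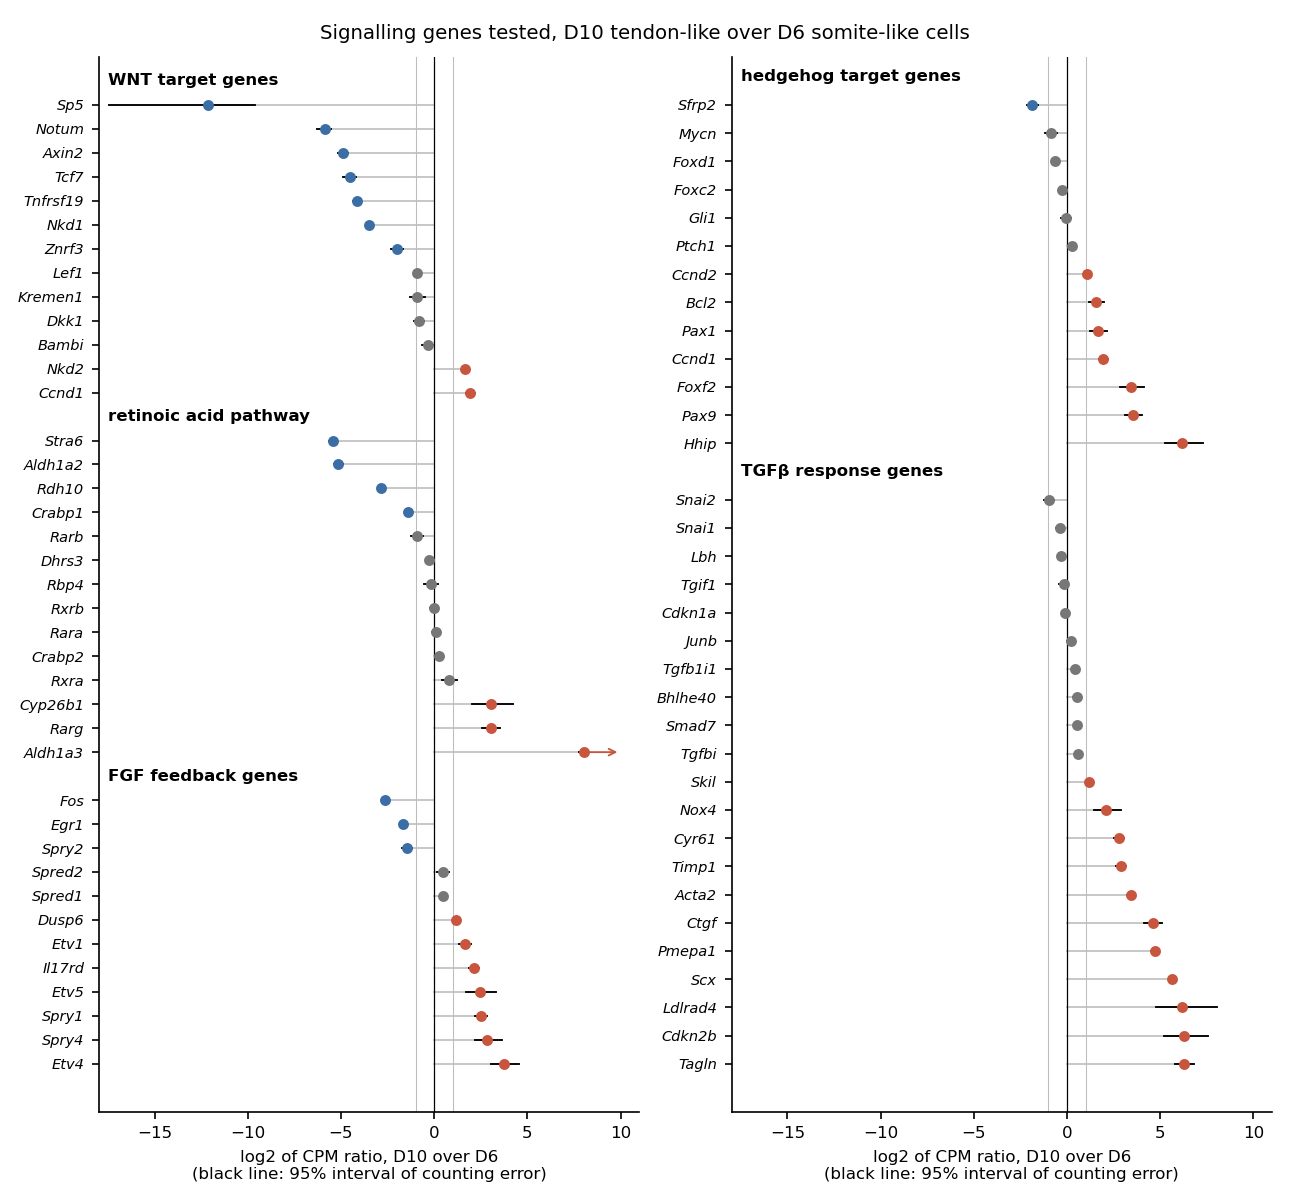
The x axis is the log2 of the CPM ratio of D10 over D6 for tested genes of 5 signalling lists, with 95% intervals of counting error as black lines and an arrow where the D6 cells had no UMI. Red and blue points are 2-fold or more higher or lower at D10 and grey points lie within 2-fold. *Sp5*, *Stra6* and *Aldh1a2* lie far to the left, *Gli1* and *Ptch1* at 0, and *Hhip*, *Tagln* and *Aldh1a3* far to the right.

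Cell cycle genes were higher at D10 in 16 of 24 tested, but this rested on code 2. *Mki67*, a marker of cycling cells, was at 170 CPM at D6, 133 CPM in code 1 and 950 CPM in code 2, and was found in 21.1%, 19.3% and 88.6% of thinned cells. Against code 1 alone, 4 of these 16 genes were still 2-fold higher and 8 were lower at D10 than at D6. Of 9295 genes tested between them 363 (3.91%) were 2-fold higher in code 2 and 54 (0.581%) lower. The CDK inhibitors *Cdkn2a* (7.24 and 77.5 CPM) and *Cdkn2b* were higher at D10 and stood lower in code 2, *Cdkn2a* at 36.7 CPM against 104 CPM in code 1. Imprinted genes, many of which regulate embryonic growth, were higher in 8 of 16 and lower in 1, *Snrpn*, led by *Plagl1*, a zinc finger factor (9.17-fold), *Igf2* (7.04-fold) and *Peg3* (447 and 3003 CPM). Of 14 tested genes of the PDGF and IGF pathway 9 were higher and 1, *Pdgfa*, lower, with *Igf1* 15.1-fold higher and the binding proteins *Igfbp7* 144-fold and *Igfbp3* 46.0-fold higher. Of 22 glycolysis and hypoxia genes 5 were higher (22.7%) and 1 lower, with a median log2 ratio of 0.33, against 12.1% and 11.6% of all genes tested. Of 14 integrated stress response genes 4 were lower (28.6%), *Atf3*, *Slc7a11*, *Asns* and *Chac1*, or 3 relative to the median ratio, and none was higher. Their median log2 ratio was -0.73 here and 0.58 in the pluripotent-like pair. Ribosomal protein genes had a median log2 ratio of -0.66, with 8 of 80 tested (10%) 2-fold lower, against 11.6% of all genes tested, and 2 of 80 relative to the median ratio.

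*Sp5* was at 289 CPM in D6 code 1 and 278 CPM in code 3, above its level in code 4. The same held for *Mogat2* (131 CPM in code 1, 77.5 CPM in code 4) and *Prtg* (262 CPM in code 3, 208.8 CPM in code 4). *Adssl1* was at 73.35 CPM in code 1 and 58.7 CPM in code 4. The other genes among the 15 most different that were lower at D10 stood highest in code 4 at D6. Endoderm and epithelial markers were lower in 7 of 9 (77.8%, against 11.6% of all genes tested), such as *Epcam*, 5.29-fold lower. But *Epcam* stood at 1097 and 1358 CPM in D6 codes 1 and 3 of the same library. The part of free RNA in its code 4 level was not tested. Without called doublets the ratio of *Epcam*, D10 over D6, went from 0.189 to 0.467. Without the 57 D6 cells with at least 2 such markers, 3 of the 7, *Sox17*, *Krt18* and *Spink1*, were still 2-fold lower at D10, *Krt8* and *Epcam* were not, and *Cldn6* and *Cldn7* were above their D6 level. Leaving out cells by these markers lowers the D6 level by construction.

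*Col1a1* was at 3858 CPM, *Dcn* at 901 CPM, *Postn* at 562 CPM and *Thbs2*, a thrombospondin of tendon matrix, at 428 CPM in the 662 cells of D6 code 5, whereas *Scx* was at 5.43 CPM and *Fmod* had no UMI there. The cells of code 5 carried UMIs of 4 Y-linked genes (*Ddx3y*, *Eif2s3y*, *Kdm5d* and *Uty*) at 125 CPM, and *Xist* at 1152 CPM. The Y-linked genes were at 0.658 CPM (4 UMIs) in the D6 somite-like cells and had 0 UMIs in D10 code 1 and 2 in code 2. In the 53 cells of D10 code 9 they were at 54.7 CPM, with *Xist* at 631 CPM and *Col1a1* at 2166 CPM. Whether these cells came from the feeder layer was not tested. Across the 10039 genes tested, log2(CPM + 1) in D10 codes 1 and 2 correlated with D6 code 4 at a Pearson r of 0.754 and a Spearman rho of 0.795, with code 5 at 0.740 and 0.737, and with the other codes at 0.662 to 0.738 and 0.677 to 0.762. Against D10 code 1 alone, Pearson's r was higher for code 5 (0.767) than for code 4 (0.755), and Spearman's rho was higher for code 4 (0.795 and 0.766). The genes tested were those at 10 CPM or more in D6 code 4 or in D10 codes 1 and 2. They were thus not chosen evenly over the D6 codes, and the order of the codes may depend on that choice. These are descriptions over genes, which are not independent replicates, and each pair shares its libraries.

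**Figure D5:**
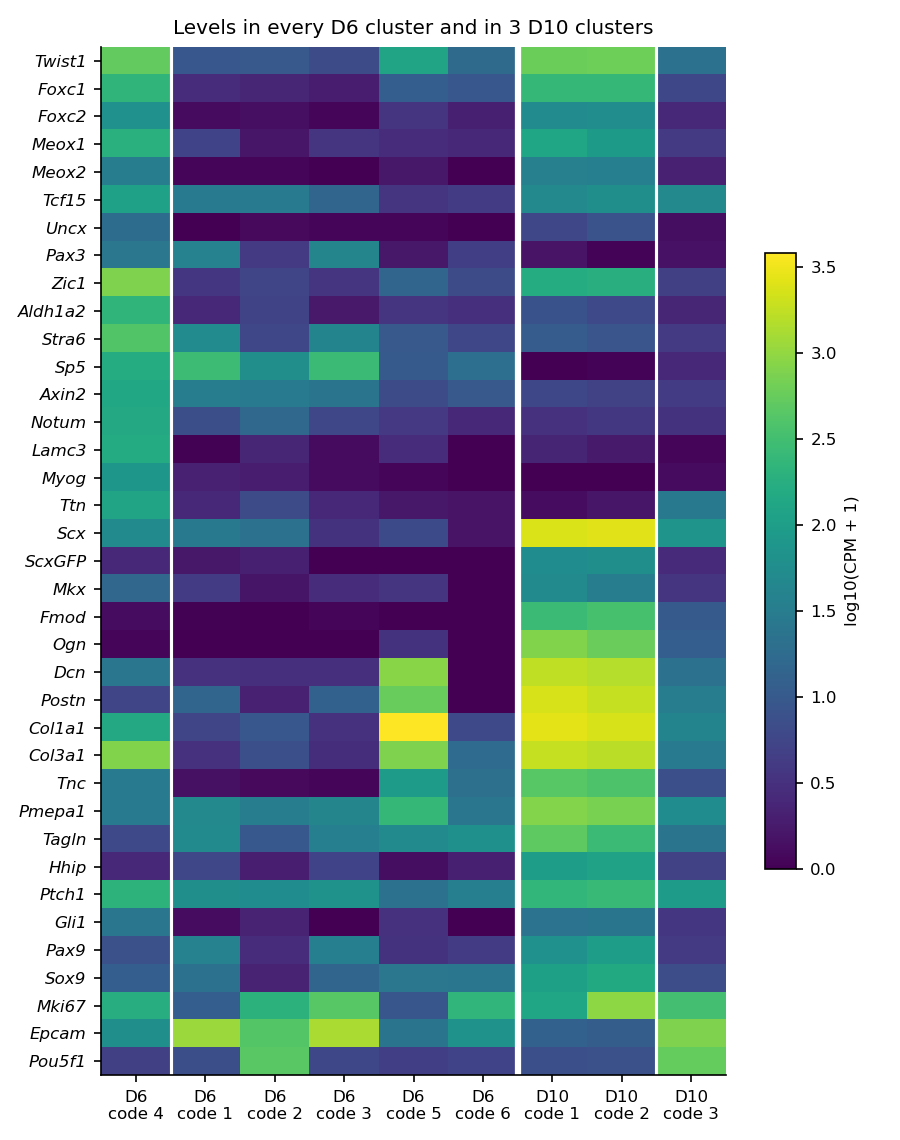
Colour gives log10(CPM + 1) of the genes in rows for all 6 clusters of the D6 library and for D10 codes 1, 2 and 3 in columns, with the D6 somite-like cells at the left. *Twist1*, *Foxc1* and *Meox1* are bright in D6 code 4 and D10 codes 1 and 2, *Scx*, *Fmod* and *Ogn* are, of the columns drawn, brightest in D10 codes 1 and 2, with *Scx* at 50.2 CPM or less in every D6 cluster, and *Col1a1*, *Dcn* and *Postn* are also bright in D6 code 5. In D10 code 4, not drawn, *Fmod* was at 746 CPM, above codes 1 and 2, and *Scx* at 1852 CPM, and in D10 code 7 *Scx* was at 2388 CPM.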

How the data were processed

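Single cells of D6 PM and of the D10 culture were measured by droplet sequencing with molecular identifiers (UMIs). The deposited tables hold whole-number counts of UMIs per gene and cell with a cluster code per cell. Per the labels and the study's methods, the authors made them with Cell Ranger and Seurat 3.0 and removed cells above 7.5% mitochondrial UMIs and 2% of cells at each end. The genome build of these tables is not given in the sources used here. UMIs were summed over the cells of each group and divided by the group's total (CPM), over 24738 genes listed in both tables. Ratios carry exact conditional binomial intervals, levels exact Poisson intervals and shares of cells Clopper-Pearson intervals, all at 95%. These cover counting error only, and cells are not replicates. With 1 library a side no test was made. A group without UMIs was set to 3 UMIs. Genes were named by their lists and as the 15 with the largest ratio each way that had at least 50 CPM and 100 UMIs. The members and lists were chosen with earlier results of these data known. Cell names rest on marker genes, and clusters were not recomputed. Doublets called by Scrublet through Scanpy 1.11.5 (1.36% of D6 and 1.48% of D10 cells) were kept, and left out as an alternative. No barcode was shared by the cells compared, and 10 by the libraries. The scripts (Python 3.11.15, NumPy 2.4.6, SciPy 1.17.1, pandas 2.3.3) were tested on simulated counts. The 3017 genes listed only in the D10 table held 0.0465% of its UMIs in codes 1 and 2 and entered no ratio. Some genes are not reported here.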

Additional observations from a re-analysis of the deposited data

Results flagged for a closer look

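For 7 genes of the lists the ratio of D10 over D6 pointed one way from somite-like to tendon-like cells and the other way in the pluripotent-like pair, each past 2-fold. The difference between the pairs was not tested, since each side is 1 library. *Des* (desmin) had a ratio of 0.02601 in the somite-like to tendon-like pair and 2.317 in the pluripotent-like pair, and *Chac1*, a stress response gene, 0.4689 and 3.149. Relative to the median ratio of genes tested, 0.917, *Chac1* was within 2-fold in the somite-like to tendon-like pair. The DNA methyltransferase *Dnmt3b* had ratios of 0.3368 and 9.495. The other 4 genes were higher in tendon-like cells and lower in D10 pluripotent-like cells. These were *Cyr61*, a secreted matrix protein gene, at 6.933 and 0.3584, *Id3*, a BMP response gene, at 3.132 and 0.4816, *Cdkn2a*, a cell cycle inhibitor, at 10.71 and 0.4818, and *Klf4* at 2.308 and 0.2583.

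D6 code 5, which entered no ratio, carried Y-linked UMIs at 125 CPM and *Xist* at 1152 CPM, above the other 5 D6 clusters, where the Y-linked genes were at 1.06 CPM or less. D10 code 9, with 53 cells, held the Y-linked genes at 54.7 CPM and *Xist* at 631 CPM.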

How the results depend on the processing

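No paired analysis was possible because each side is 1 library, and for the same reason no library could be left out. Of the genes tested, 1217 were higher and 1166 lower at D10. With a filter of 50 CPM these were 576 and 386, with 10 UMIs over both groups in place of a CPM filter 2535 and 3177, and at 4-fold 504 and 431. Under the other 10 settings the counts ran from 1167 to 1391 higher and from 977 to 1393 lower. Leaving out D6 cells with muscle or endoderm markers was chosen after seeing the data. With D10 code 1 alone 8 of the 350 called genes of the lists turned to the other side of 1, with ratios of 0.5175 for *Top2a*, 0.7822 for *Mki67*, 0.7829 for *Cenpf*, 0.7328 for *Ccnb1*, 0.9172 for *Ccna2*, 0.8845 for *Cdk1*, 0.6441 for *Aurkb* and 0.6246 for *Ube2c*. Code 2 was the cluster richer in their transcripts. Of the 350, 327 were past 2-fold with code 1 alone, 337 with code 2 alone and 335 after thinning to 3000 UMIs. In the same order 27, 51 and 46 moved by over 1.5 times. Without the D6 cells with at least 2 endoderm or epithelium markers the ratio was 1.038 for *Dppa5a*, 1.046 for *Cldn6* and 1.637 for *Cldn7*. Levels under 0.494 CPM at D6 or 0.110 CPM at D10 rest on fewer than 3 UMIs.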
